A study of Arabidopsis thaliana with 18 samples.

Results

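TCX2 (AT4G14770, TESMIN-LIKE CXC 2) and the 7 other CXC-domain genes of Arabidopsis thaliana were followed through root tips and sorted root cells to ask how much TCX2 transcript a tcx2 mutant retained and whether its relatives changed where TCX2 was disrupted. The members were chosen by gene identifier, with no measured value in the rule, although earlier results of these data were known when the family was picked: TCX2, TSO1 (AT3G22780), SOL1 (AT3G22760), TCX4 (AT3G04850), TCX5 (AT4G29000), TCX6 (AT2G20110), TCX7 (AT5G25790) and TCX8 (AT3G16160). All 8 were found among the 33201 entries measured in root tips and among the 33560 genes measured in sorted cells. Root tips came from 5-day-old tcx2 mutant seedlings and 5-day-old wild type (WT, accession Col-0) seedlings, with 3 samples of each genotype pooled by the authors into 1 value per gene. The sorted cells were GFP-positive cells collected by flow cytometry from protoplasted roots of tcx2 plants carrying CYCD6:GFP, FEZ:FEZ-GFP, TMO5:3xGFP or WOX5:GFP, with 3 libraries per reporter line, and every one of these 12 libraries was from a tcx2 background. Sorted wild-type cells were not analysed here, so that the sorted libraries show how the family was distributed within the mutant and not what the mutation changed. The reporters are driven by promoters described for the cortex-endodermis initial (CYCD6), the epidermis and lateral root cap initials (FEZ), xylem (TMO5) and the quiescent center (WOX5). In the study's methods the root tips carried the tcx2-3 allele, a T-DNA insertion classed there as a knockout, whereas the reporter lines had been crossed to tcx2-2, classed as a knockdown, or to tcx2-3, and which of these alleles each sorted line carried is not given in the sources used here.

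CXC-domain proteins carry a pair of short cysteine-rich repeats that bind DNA. In animals, their relative LIN54 is the DNA-binding subunit of the DREAM complex, which also holds a retinoblastoma protein, E2F and DP factors, LIN9 and a WD40 histone-binding protein, and which switches cell cycle genes on and off. In Arabidopsis TSO1 is known for its requirement in flower and meristem cell division, SOL1 and TCX2 (also called SOL2) for the control of divisions in the stomatal lineage, and TCX5 and TCX6 for a DREAM complex that holds down genes of DNA methylation maintenance. Less is known of TCX4, TCX7 and TCX8.

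Since the question turns on telling relatives apart in short reads, the most similar stretches of the family are shown here. They encode part of a cysteine-rich repeat, and were read from the RefSeq gene models on TAIR10.1, 5′ to 3′ on the coding strand. Among TCX2 (coding bases 1126 to 1225, exons 4 and 5, chr4:8482675-8482859, minus strand), TSO1 (1204 to 1303, exons 5 and 6, chr3:8050708-8050914, plus strand) and SOL1 (985 to 1084, exons 5 and 6, chr3:8046130-8046308, plus strand), 91 of 100 bases were the same in all 3 genes, and the 9 that were not are in capitals.
TCX2: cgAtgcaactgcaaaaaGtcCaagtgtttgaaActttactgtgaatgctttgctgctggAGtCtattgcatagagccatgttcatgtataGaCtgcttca
TSO1: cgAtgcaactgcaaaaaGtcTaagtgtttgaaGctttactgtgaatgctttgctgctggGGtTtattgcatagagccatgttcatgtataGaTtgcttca
SOL1: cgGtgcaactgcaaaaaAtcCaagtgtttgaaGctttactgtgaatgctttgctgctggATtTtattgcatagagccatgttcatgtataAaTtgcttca
Between TCX2 and TSO1 these 100 bases differed at 5 positions, all at the third codon position and all synonymous. The most similar stretch of TCX5 and TCX6 was a different one, since the closest 100 bases of TCX2 to it began at coding base 1384, outside the stretch shown for TCX2. In it TCX5 (coding bases 658 to 757, exon 4, chr4:14295088-14295187, plus strand) and TCX6 (619 to 718, exon 4, chr2:8685496-8685595, plus strand) differed at 7 positions, in capitals, which were again all at the third codon position and synonymous.
TCX5: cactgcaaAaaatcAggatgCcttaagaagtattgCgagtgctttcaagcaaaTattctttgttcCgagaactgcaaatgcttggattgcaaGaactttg
TCX6: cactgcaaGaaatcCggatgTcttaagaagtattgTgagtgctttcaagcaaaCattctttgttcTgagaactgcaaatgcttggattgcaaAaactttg

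Reads in the study were 100 bases long, and no 100-base window of any of the 8 transcripts was shared with another member or found more than once in the genome. The longest run of identical bases was 50, between TCX2 and SOL1. Other close pairs were TSO1 and SOL1 with 38, TCX2 and TSO1 with 33, TCX4 and TCX6 with 27, and TCX5 and TCX6 with 26 bases. A 100-base read without mismatches to these transcripts therefore fitted 1 member only, and the number of mismatches the authors allowed is not given in the sources used here.

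The genes lie on chromosomes 2 to 5. In the authors' TAIR10 coordinates TCX2 spans chr4:8481370-8484825 on the minus strand, with 9 exons in RefSeq. SOL1 at chr3:8044455-8047530 and TSO1 at chr3:8048802-8052260 are neighbours on the plus strand with 10 exons each, and TCX4 (chr3:1331946-1335993, minus strand, 10 exons) and TCX8 (chr3:5473366-5475090, minus strand, 7 exons) are also on chromosome 3. TCX6 is at chr2:8684496-8687218 (plus strand, 7 exons) and TCX7 at chr5:8977100-8979259 (minus strand, 7 exons). TCX5 was given at chr4:14293513-14302147 (plus strand, 8 exons), a locus that the authors' table shares with AT4G29010, and its interval was the widest relative to its value of the 8 members.

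In root tips TCX2 was lower in tcx2, and none of the 7 relatives was separated between the genotypes. TCX2 stood at 0.303 FPKM (fragments per kilobase of transcript, scaled to the mapped total of the library) in tcx2 root tips, with an interval of 0.055 to 0.550, against 1.29 FPKM in WT root tips, with an interval of 0.715 to 1.82. The mutant value was 23.5% of the WT value, and the log2 ratio of FPKM + 1, tcx2 over WT, was -0.81. The values and intervals are those the authors deposited, and the confidence level of the intervals is not given in the sources used here. With 1 pooled value per genotype no test over replicates was possible, so the call was one of separation: a gene was called separate where the mutant and WT intervals did not overlap, among entries with a minimum of 1 FPKM in either genotype. Of 17465 entries that met this minimum, 63 were separate (0.361%), 56 of them lower in tcx2 (0.321%) and 7 higher (0.0401%). TCX2 was the 1 member called among the 5 members that met it, and 149 of the entries had a log2 ratio at or below that of TCX2. By a fold over 1.5 in FPKM + 1, which TCX2 also passed, 2.62% of entries were called, 1.83% as lower in tcx2, and 0 of the other 4 members. The study had set its root tip fold of 1.5 from the values of TCX2 itself, so TCX2 passing it adds no separate evidence. Its q-value cutoff, a limit on false discoveries, was set from TCX2 too, and was looser than the one for its sorted cells. A pseudocount of 0.1 in place of 1 took the log2 ratio of TCX2 to -1.78.

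The TCX2 transcript was thus listed above 0 in the line whose allele was classed as a knockout. Both bounds in both genotypes were whole multiples of a single step of 0.0550 FPKM, 1 and 10 steps in tcx2 and 13 and 33 steps in WT, with the values themselves at 5.50 steps in tcx2 and 23.4 steps in WT. What a step stands for in reads is not stated. The values are for the whole gene, so whether the remaining transcript lay before or after the insertion was not tested. In whole root tips, fewer cells of a type and less RNA per cell cannot be told apart. The genes listed here for the root meristem (PLT1, PLT2, SCR, SHR) summed to 33.5 FPKM in tcx2 and 35.8 FPKM in WT, with 0 of the 3 that met the minimum separate. SCR and SHR, which organise the ground tissue, carried most of this sum, at 93.2% and 102% of WT, while PLT1 and PLT2, factors of the stem cell niche, were at 71.9% and 62.1% of WT with overlapping intervals. WOX5, a gene of the quiescent center, was at 0.0827 FPKM in tcx2 and 0.612 FPKM in WT, and FEZ was at 0.385 FPKM in tcx2 and 0.765 FPKM in WT, both with overlapping intervals. Of the other reporter genes, TMO5 was at 2.11 FPKM in tcx2 and 2.62 FPKM in WT. CYCD6;1 went the other way, at 0.486 FPKM in tcx2 and 0.425 FPKM in WT. Their intervals overlapped too, and TMO5 alone of these reporter genes met the minimum.

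The 3 root hair genes (COBL9, EXPA7, PRP3) were at 122%, 125% and 142% of WT and summed to 2396 FPKM in tcx2 and 1756 FPKM in WT, with 0 of 3 separate. Most of that sum was PRP3, whose value lay above its own interval in both genotypes. Of the 3 genes of green tissue, RBCS1A was at 1.54 FPKM in tcx2 and 3.45 FPKM in WT, 44.6% of WT with overlapping intervals, and the sum was 22.4 FPKM in tcx2 and 30.9 FPKM in WT. The 3 root cap genes (SMB, BRN1, BRN2) summed to 101 FPKM in tcx2 and 99.1 FPKM in WT. The part of these markers in the TCX2 difference was not tested.

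TSO1 was the most abundant member in both genotypes. It stood at 14.6 FPKM (10.7 to 18.3) in tcx2, against 13.5 FPKM (9.87 to 17.0) in WT, with a log2 ratio of 0.10. Its interval lay above that of every other member in both genotypes. SOL1, the relative with the longest run in common with TCX2, was at 0.417 FPKM (0.112 to 0.670) in tcx2 and 0.478 FPKM (0.167 to 0.781) in WT, below the minimum in both, with a log2 ratio of -0.06. The closest relatives of TCX2 by sequence therefore showed ratios near 0, with intervals that covered most of each other.

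**Figure D1:**
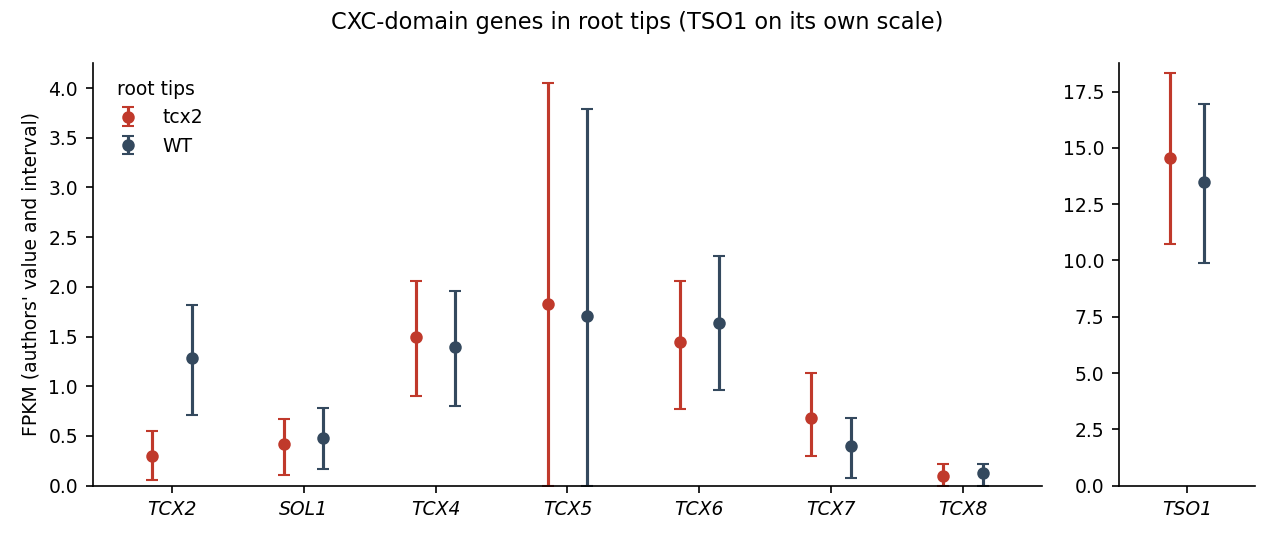
FPKM of the 8 CXC-domain genes in root tips, tcx2 in red and WT in dark blue, with the authors' interval as the bar; TSO1 has its own axis. The intervals of TCX2 (0.055 to 0.550 in tcx2, 0.715 to 1.82 in WT) were the only ones of the 8 genes that did not overlap between genotypes.

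TCX4 was at 1.5 FPKM (0.904 to 2.06) in tcx2 and 1.40 FPKM (0.803 to 1.96) in WT, with a log2 ratio of 0.06. TCX6 was at 1.44 FPKM (0.772 to 2.06) in tcx2 and 1.64 FPKM (0.964 to 2.31) in WT, with a log2 ratio of -0.11. TCX5, its partner in the methylation complex, was at 1.83 FPKM (0 to 4.05) in tcx2 and 1.71 FPKM (0 to 3.79) in WT, with a log2 ratio of 0.06. The interval of TCX5 began at 0 in both genotypes, so its ratio was the least precise of these 3.

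TCX7 had the highest log2 ratio of the family, 0.26, but its intervals overlapped. It was at 0.682 FPKM (0.301 to 1.13) in tcx2 and 0.403 FPKM (0.0753 to 0.677) in WT, or 9.06 and 5.36 steps of 0.0753 FPKM, and did not meet the minimum in either genotype. The plain ratio of these values was 1.69, and with a pseudocount of 0.1 the log2 ratio was 0.64, so that the size of the TCX7 ratio depended on the pseudocount. TCX8 was at 0.0995 FPKM (0 to 0.216) in tcx2 and 0.130 FPKM (0 to 0.216) in WT. Of the 4 relatives that met the minimum, 3 had a ratio above 0 and 1 below, and their median log2 ratio was 0.06, beside 0.00 over all 17465 entries.

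FPKM is scaled by transcript length, so levels of the members can be set beside each other. In WT the order was TSO1, TCX5, TCX6, TCX4, TCX2, SOL1, TCX7 and TCX8, and in tcx2 it was TSO1, TCX5, TCX4, TCX6, TCX7, SOL1, TCX2 and TCX8. TSO1 was the 1 gene whose interval was clear of its neighbour in this order, and all other neighbours overlapped in both genotypes. Summed over the 7 relatives, FPKM was 20.5 in tcx2 and 19.2 in WT, a difference of 1.28 and a ratio of 1.07, of which TSO1 contributed 1.08. Without TSO1 the other 6 relatives summed to 5.97 FPKM in tcx2 and 5.76 FPKM in WT. With TCX2 included the 8 genes summed to 20.8 FPKM in tcx2 and 20.5 FPKM in WT, and TCX2 made up 1.45% of this sum in tcx2 and 6.27% in WT, while TSO1 made up 69.9% in tcx2 and 65.7% in WT. The difference in TSO1 was smaller than the width of its interval in either genotype.

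For genes of the complex that CXC-domain proteins join, and for its targets, no separation was seen, beside 0.361% of all tested entries, a share at which a list of this length would mostly hold none. None of the 14 DREAM partner genes (the LIN9 relatives ALY1, ALY2 and ALY3, the retinoblastoma gene RBR1, 3 E2F and 2 DP genes, 4 MYB3R genes and the histone-binding MSI1) was separate, 4 had a ratio above 0 and 10 below, and the median log2 ratio was -0.07. The lowest was DPA, a dimer partner of E2F, at 10.1 FPKM in tcx2 and 11.8 FPKM in WT (log2 ratio -0.21), and the highest was MYB3R1, a MYB factor of cell cycle genes, at 10.3 FPKM in tcx2 and 8.80 FPKM in WT (0.21). None of the 6 genes of DNA methylation maintenance (MET1, CMT3, DDM1, KYP, VIM1, VIM3), known targets of the TCX5 and TCX6 complex, was separate either. Their median log2 ratio was -0.16, with 1 above 0 and 5 below. The lowest was KYP, a histone H3 lysine 9 methyltransferase, at 2.81 FPKM in tcx2 and 3.55 FPKM in WT (-0.26), and the highest was MET1, the maintenance methyltransferase for CG sites, at 6.55 FPKM in tcx2 and 6.14 FPKM in WT (0.08). All 20 ratios lay inside the middle 95% of the tested entries, -0.50 to 0.38.

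**Figure D2:**
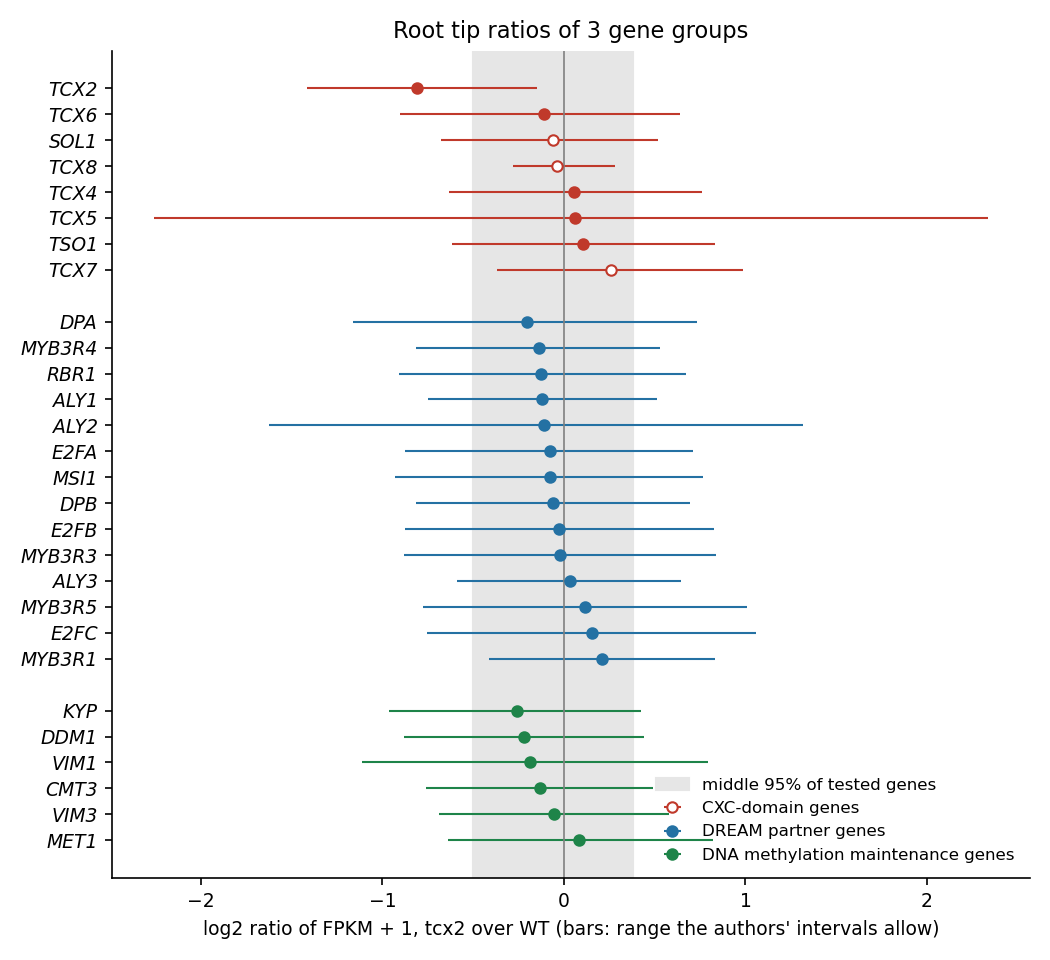
Log2 ratio of FPKM + 1, tcx2 over WT root tips, for the CXC-domain genes, the DREAM partner genes and the DNA methylation maintenance genes. Bars run over the ratios that the authors' intervals allow, open symbols mark members below 1 FPKM in both genotypes, and the grey band holds the middle 95% of tested entries (-0.50 to 0.38); TCX2, at -0.81, is the 1 gene shown whose point lies outside the band and whose bar does not reach 0.

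Before the sorted libraries are described, 2 of their features need stating. In every one of the 12, 78.1 to 85.9% of the summed FPKM came from ribosomal RNA genes, and 14878 to 22170 genes were above 0, with the highest numbers, 18981 to 22170, in the libraries labelled TMO5:3xGFP and 14878 to 18043 in the rest. The reporter genes themselves went against 3 of the 4 labels. WOX5 was listed at 0 in all 3 libraries labelled WOX5:GFP and was above 0 in 2 libraries labelled TMO5:3xGFP, whereas TMO5 was at 3.75, 0.391 and 0.782 FPKM in the libraries labelled WOX5:GFP and at 0, 0.206 and 0 FPKM in those labelled TMO5:3xGFP. CYCD6;1 was at 0 in all 3 libraries labelled CYCD6:GFP and above 0 in 1 labelled FEZ:FEZ-GFP (0.315 FPKM) and in 2 labelled TMO5:3xGFP (0.125 and 0.136 FPKM). FEZ was above 0 in all 3 labelled FEZ:FEZ-GFP, at 0.347 to 2.90 FPKM, and also in all 3 labelled TMO5:3xGFP, at 0.408 to 0.917 FPKM. By its name the FEZ:FEZ-GFP reporter holds FEZ itself, so in that line reads of the reporter and of the native gene cannot be told apart here. Genes of the stele and xylem followed TMO5. SHR, a stele gene, was at 3.50, 0.848 and 1.14 FPKM in the libraries labelled WOX5:GFP and at 0.292, 0.309 and 0.760 FPKM in those labelled TMO5:3xGFP. XCP1, a xylem protease, was at 0.755, 3.00 and 8.42 FPKM in the libraries labelled WOX5:GFP and at 0 in all 3 labelled TMO5:3xGFP. Whether the labels WOX5:GFP and TMO5:3xGFP were exchanged was not tested, and their libraries were kept as labelled. Populations are therefore given by their labels throughout, and every direction between them is one of labelled libraries.

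TCX2 was above 0 in 10 of the 12 sorted tcx2 libraries. It was at 0.389, 0.722 and 0.271 FPKM in the libraries labelled FEZ:FEZ-GFP, at 0.594, 0.677 and 0 FPKM in those labelled WOX5:GFP, at 0.164, 0.391 and 0.0732 FPKM in those labelled CYCD6:GFP, and at 0.105, 0 and 0.402 FPKM in those labelled TMO5:3xGFP. The values of all 4 populations overlapped, and none reached 1 FPKM. TCX2 transcript was therefore listed in at least 2 libraries of each of the 4 populations of the mutant. Whether a listed 0 is an absence of transcript was not tested, and the commonly expressed gene TIP41 was also listed at 0 in 1 library. In an exact two-sided permutation test over the 220 ways of choosing 3 of 12 libraries, whose smallest possible p is 0.00455, TCX2 gave p = 0.277 for FEZ:FEZ-GFP against the others, 0.473 for WOX5:GFP, 0.464 for CYCD6:GFP and 0.291 for TMO5:3xGFP.

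TSO1 was the 1 member above 0 in all 12 libraries. It was at 3.31, 1.29 and 0.722 FPKM in the libraries labelled FEZ:FEZ-GFP, at 0.949, 1.98 and 1.01 FPKM in those labelled TMO5:3xGFP, at 1.28, 0.327 and 0.923 FPKM in those labelled WOX5:GFP, and at 0.651, 0.720 and 0.430 FPKM in those labelled CYCD6:GFP. The libraries labelled CYCD6:GFP, at 0.720 FPKM or less, lay below every library labelled FEZ:FEZ-GFP or TMO5:3xGFP, by as little as 0.722 against 0.720 FPKM, and overlapped those labelled WOX5:GFP. In limma, with p-values adjusted by Benjamini and Hochberg over the 9979 genes at 1 FPKM or more in at least 3 libraries, the log2 difference of FPKM + 1 was 0.46 (SE 0.33, adjusted p 0.827) in FEZ:FEZ-GFP against the mean of the other 3 populations. It was 0.22 (adjusted p 0.770) in TMO5:3xGFP, -0.23 (adjusted p 0.854) in WOX5:GFP and -0.46 (adjusted p 0.656) in CYCD6:GFP, and the F-test across the 4 populations gave an adjusted p of 0.662. Differences of up to 1.15 on the log2 scale in FEZ:FEZ-GFP lay within the 95% confidence interval (-0.23 to 1.15).

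TCX7 was the other member to pass this minimum, and its values varied as much within populations as between them. It was at 0, 0.484 and 2.79 FPKM in the libraries labelled FEZ:FEZ-GFP, at 1.44, 1.09 and 0 FPKM in those labelled TMO5:3xGFP, at 0, 0.725 and 0.464 FPKM in those labelled CYCD6:GFP, and at 0, 0 and 0.747 FPKM in those labelled WOX5:GFP. Each population held at least 1 library at 0. The log2 difference was 0.33 (SE 0.38, limma adjusted p 0.917) in FEZ:FEZ-GFP, 0.27 (adjusted p 0.754) in TMO5:3xGFP, -0.18 (adjusted p 0.930) in CYCD6:GFP and -0.42 (adjusted p 0.727) in WOX5:GFP, with an F-test adjusted p of 0.818.

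Of the 2 members tested, 0 passed the F-test, beside 4.28% of all tested genes, and 0 passed in any population. Among all tested genes 5.52% were called in TMO5:3xGFP, 0.802% in WOX5:GFP, 0.241% in FEZ:FEZ-GFP and 0.2% in CYCD6:GFP, a call here being an adjusted p under 0.05 with a fold over 2. These shares split into 4.47% higher and 1.05% lower in TMO5:3xGFP, 0.351% higher and 0.451% lower in WOX5:GFP, 0.22% higher and 0.02% lower in FEZ:FEZ-GFP, and 0.0% higher and 0.2% lower in CYCD6:GFP. At an unadjusted p under 0.05 the count for the 2 members was also 0 in each of these limma tests.

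The remaining members had lower medians over the libraries than TSO1 and were more often at 0 than TSO1. SOL1 was at 0.153, 0.607 and 0.443 FPKM in the libraries labelled TMO5:3xGFP, at 0.420, 0 and 0 FPKM in those labelled CYCD6:GFP, at 0, 0.410 and 0.167 FPKM in those labelled FEZ:FEZ-GFP, and at 0 in all 3 labelled WOX5:GFP. Its difference in TMO5:3xGFP was 0.34 on the log2 scale, with an exact permutation p of 0.0273, the 1 value under 0.05 among 20 such comparisons of the 5 members below the minimum, and an adjusted p of 0.339 in a limma fit of all genes above 0 in any library. TCX4 was above 0 in 5 libraries, at 0.581, 0 and 0.290 FPKM in those labelled WOX5:GFP, at up to 0.182 FPKM in those labelled FEZ:FEZ-GFP, at 0.0622 FPKM in 1 labelled CYCD6:GFP, and at 0 in all 3 labelled TMO5:3xGFP. Its difference in WOX5:GFP was 0.29, with an exact permutation p of 0.05 and a limma adjusted p of 0.660 in the fit of all genes.

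TCX5 was above 0 in 10 libraries and TCX6 in 8. TCX5 was at 0.708, 1.61 and 0.380 FPKM in the libraries labelled TMO5:3xGFP, at 0.605, 0 and 1.27 FPKM in those labelled CYCD6:GFP, at 0.420, 0 and 0.322 FPKM in those labelled WOX5:GFP, and at 0.106 to 0.320 FPKM in those labelled FEZ:FEZ-GFP. TCX6 was at 0, 0.430 and 1.52 FPKM in the libraries labelled FEZ:FEZ-GFP and at 0 to 0.352 FPKM in all others. These partners thus had their highest value in different libraries, TCX5 in TMO5:3xGFP replicate 2 and TCX6 in FEZ:FEZ-GFP replicate 3. The lowest exact permutation p was 0.0818 for TCX5, in TMO5:3xGFP, and 0.0773 for TCX6, in FEZ:FEZ-GFP. TCX8 was listed at 0 in all 12 libraries.

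**Figure D3:**
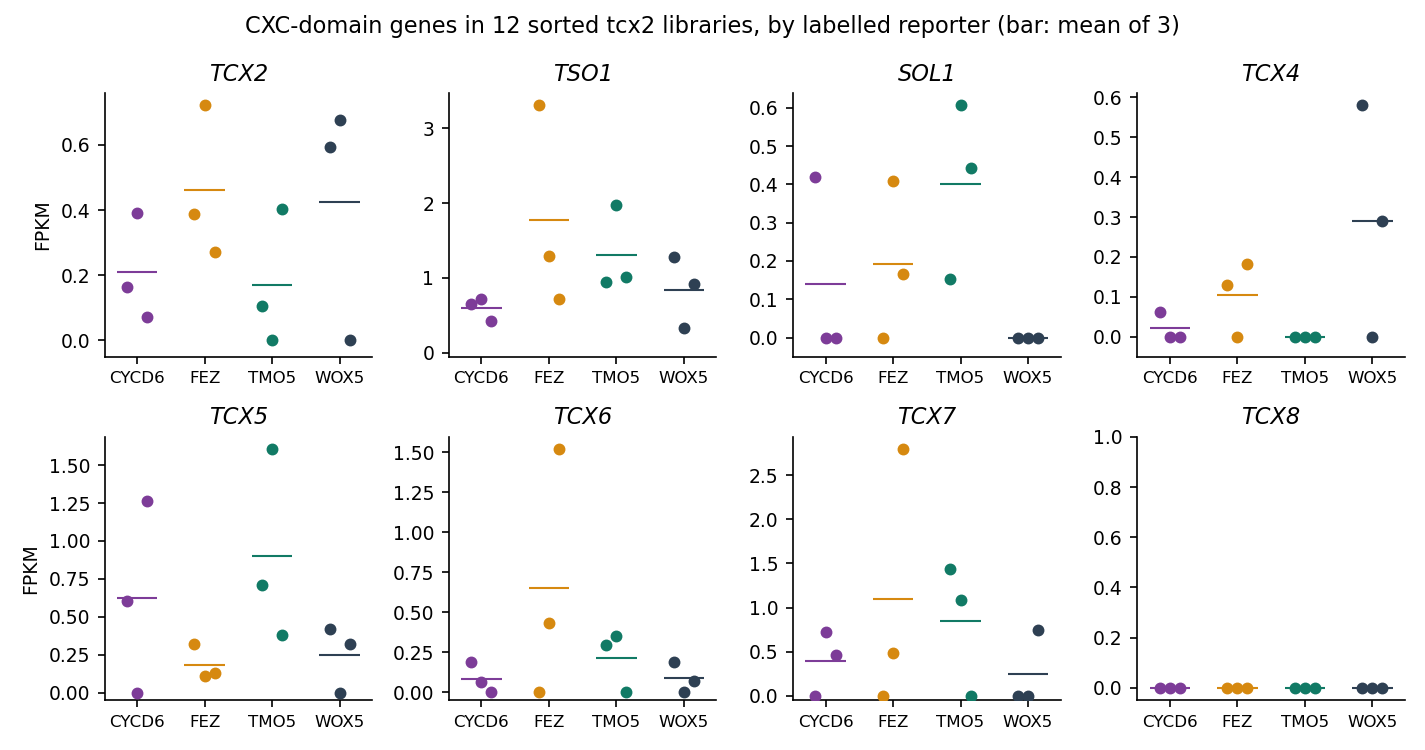
FPKM of each CXC-domain gene in the 12 sorted tcx2 libraries by labelled reporter line; each point is a library, in replicate order, each bar is the mean of 3, and each gene has its own axis. TSO1 was above 0 in all 12 libraries and reached 3.31 FPKM, TCX2 was above 0 in 10 libraries and stayed at or below 0.722 FPKM, and TCX8 was at 0 throughout.

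The 8 genes summed to 4.46 ± 1.2 FPKM in FEZ:FEZ-GFP, 3.84 ± 1.70 FPKM in TMO5:3xGFP, 2.14 ± 1.05 FPKM in WOX5:GFP and 2.08 ± 0.166 FPKM in CYCD6:GFP (SD, n = 3 each). The sums in FEZ:FEZ-GFP, 3.44 to 5.78 FPKM, lay above those in CYCD6:GFP, 1.90 to 2.23 FPKM. The sums in TMO5:3xGFP also lay above those in CYCD6:GFP, but by less than 0.001 FPKM at the nearest pair of libraries, and WOX5:GFP overlapped CYCD6:GFP. No test was made of a sum over chosen genes. The most abundant member was TSO1 in 7 libraries, TCX7 in 3, TCX5 in 1 and TCX2 in 1, and 2 to 7 of the 8 members were above 0 in a library. TCX2 made up a median of 8.62% of the family sum, and its share was above the 1.45% of tcx2 root tips in 10 of 12 libraries and above the 6.27% of WT root tips in 7. TSO1 made up a median of 36.3% (12.5 to 79.8%), against 69.9% in tcx2 root tips. Root tips and sorted cells were prepared with different kits, normalised in separate tables and possibly carried different alleles, which cannot be told apart here. The highest TCX2 share, 67.5% in WOX5:GFP replicate 2, came with the lowest family sum, 1.00 FPKM, where only TCX2 and TSO1 were above 0.

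**Figure D4:**
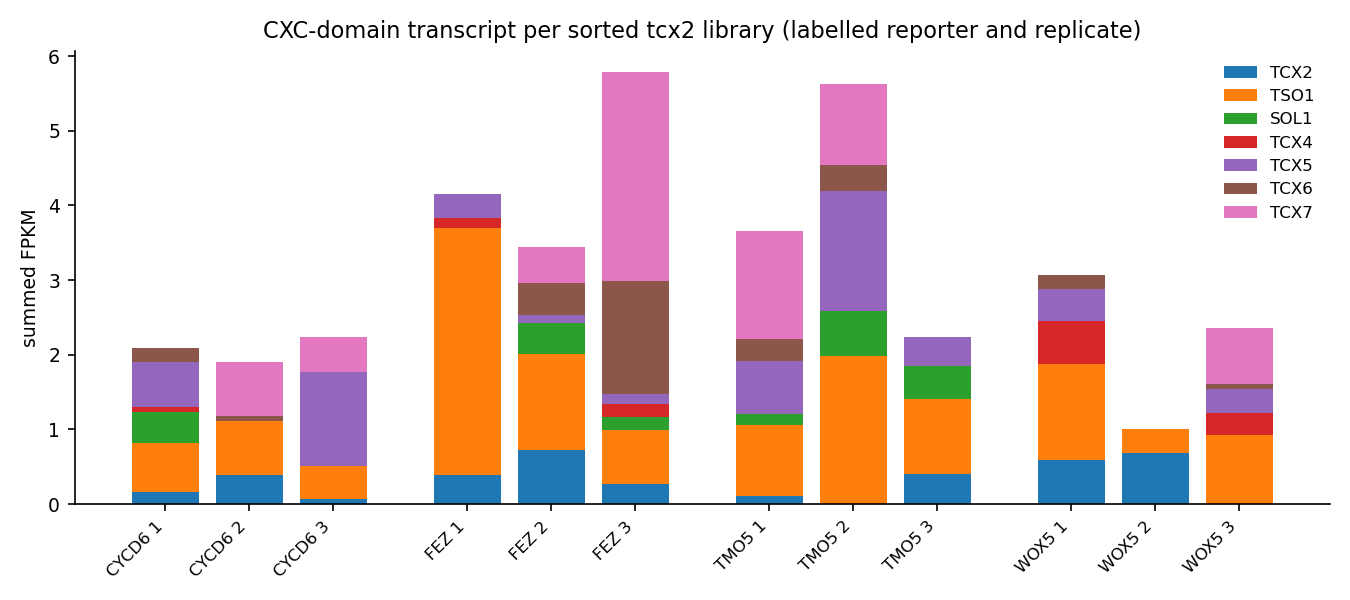
Summed FPKM of the CXC-domain genes in each of the 12 sorted tcx2 libraries, named by labelled reporter and replicate and stacked by gene; TCX8 was at 0 in all. Sums run between 1.00 FPKM in WOX5:GFP replicate 2 and 5.78 FPKM in FEZ:FEZ-GFP replicate 3, and the gene with the largest share changes between libraries of the same label.

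The genes whose log2(FPKM + 1) tracked TSO1 most closely over the 12 libraries were ECT1 (AT3G03950, a YTH-domain gene; Pearson r 0.96), AT4G19610 (r 0.93) and AT4G26870 (r 0.92), of 9978 other tested genes. All 3 had their highest value in FEZ:FEZ-GFP replicate 1, as TSO1 did, with 4.75 FPKM for ECT1. For TCX7 they were AT5G63135 (r 0.89), AT4G10940 (r 0.89) and AT2G32170 (r 0.87), each highest in FEZ:FEZ-GFP replicate 3. These are the highest of many correlations over 12 points that share populations and library depth, and are given as a description only.

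Of the 14 DREAM partner genes, 8 passed the minimum in the sorted libraries, and 1 of these was called. MYB3R3, a MYB factor of the complex known to repress mitotic genes, was at 1.49, 3.05 and 2.03 FPKM in the libraries labelled TMO5:3xGFP, against 0.0461 to 0.573 FPKM in the 9 others. The difference from the mean of the other populations was 1.3 on the log2 scale (SE 0.28, adjusted p 0.00972 in limma), where 4.47% of all tested genes were called higher, and its F-test adjusted p was 0.0484. The F-test call was lost in 16 of 19 alternatives. MYB3R3 met the minimum only through these 3 libraries. With no minimum its adjusted p was 0.0188, and then without TMO5:3xGFP replicate 2 the difference was 1.11 with an adjusted p of 0.0664. When the libraries labelled WOX5:GFP were left out, a fit chosen after seeing the data, the difference from the mean of the other 2 populations was 1.27 (limma adjusted p 0.0410). With a pseudocount of 0.1 the call was lost (limma adjusted p 0.0525).

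In the same libraries labelled TMO5:3xGFP the 4 root meristem genes summed to 7.92 to 22.3 FPKM, against 0.508 to 8.01 FPKM in the other 9. PLT1 (3.16 to 12.5 FPKM) and PLT2 (3.21 to 8.55 FPKM) made up most of it. SCR was at 0.794 to 1.00 FPKM, near the 0.894 FPKM of CYCD6:GFP replicate 2. SHR, at 0.292 to 0.760 FPKM, lay below the libraries labelled WOX5:GFP (0.848 to 3.50 FPKM) and above those labelled FEZ:FEZ-GFP or CYCD6:GFP (0 to 0.278 FPKM). The 3 root cap genes (SMB, BRN1, BRN2) summed to 5.48 to 11.2 FPKM, against 0 to 8.17 FPKM in the other 9. The part of these markers and of the higher number of detected genes in the MYB3R3 difference was not tested. The other DREAM partners differed less from the mean of the other populations. In TMO5:3xGFP the lowest was MYB3R4, a MYB factor that activates mitotic genes, at -0.29, and the median of the 8, MYB3R3 included, was 0.50 beside 0.14 for all tested genes, with 3 at an unadjusted p under 0.05. The share of all tested genes under that p was not counted, so the 3 cannot be read as an excess. Of all tested genes 5.52% were called in TMO5:3xGFP. In FEZ:FEZ-GFP the highest was MYB3R4 at 0.58 (limma adjusted p 0.742) and the lowest was MYB3R3 at -0.49 (median 0.04, all genes -0.03). In CYCD6:GFP all 8 were below 0, from -0.48 for MYB3R4 to -0.03 for DPA (median -0.33, all genes -0.10), and in WOX5:GFP 6 of 8 were below 0, from -0.51 for MYB3R3 to 0.19 for MYB3R4 (median -0.27, all genes -0.01). None of these differences in the other 3 populations was called, and 0 had an unadjusted limma p under 0.05.

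Of the 6 genes of DNA methylation maintenance, 4 passed the minimum and 0 were called in any population. In CYCD6:GFP all 4 were below 0, with a median of -0.56 beside -0.10 for all tested genes, and 2 had an unadjusted p under 0.05. The lowest was VIM1, a methylcytosine-binding cofactor of MET1 with close relatives in the genome, at 0, 0.920 and 0.350 FPKM in the libraries labelled CYCD6:GFP, against 0.812 to 4.86 FPKM in the 9 others, so that the groups overlapped, and the difference was -1.34 on the log2 scale (SE 0.36, adjusted p 0.142 in limma). The highest there was KYP, at -0.16. In FEZ:FEZ-GFP all 4 were above 0, from 0.18 for VIM3 to 0.62 for KYP (median 0.40). In TMO5:3xGFP they ran from 0.06 for VIM3 to 1.01 for VIM1 (limma adjusted p 0.111; median 0.63), with 2 at an unadjusted p under 0.05. In WOX5:GFP they ran from -0.77 for KYP to 0.10 for VIM3 (median -0.32), with 1 at an unadjusted p under 0.05. The share of all tested genes under that p was not counted, so these counts cannot be read as an excess. VIM1 was called lower in CYCD6:GFP when the libraries labelled WOX5:GFP were left out (difference -1.61, limma adjusted p 0.0448) and with array weights (-1.02, adjusted p 0.00489). Leaving out those libraries was chosen after seeing the data. Array weights also raised the F-test calls over all genes, as given below. The shares of all genes called lower in these fits are not given here, so the VIM1 calls have no background beside them.

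**Figure D5:**
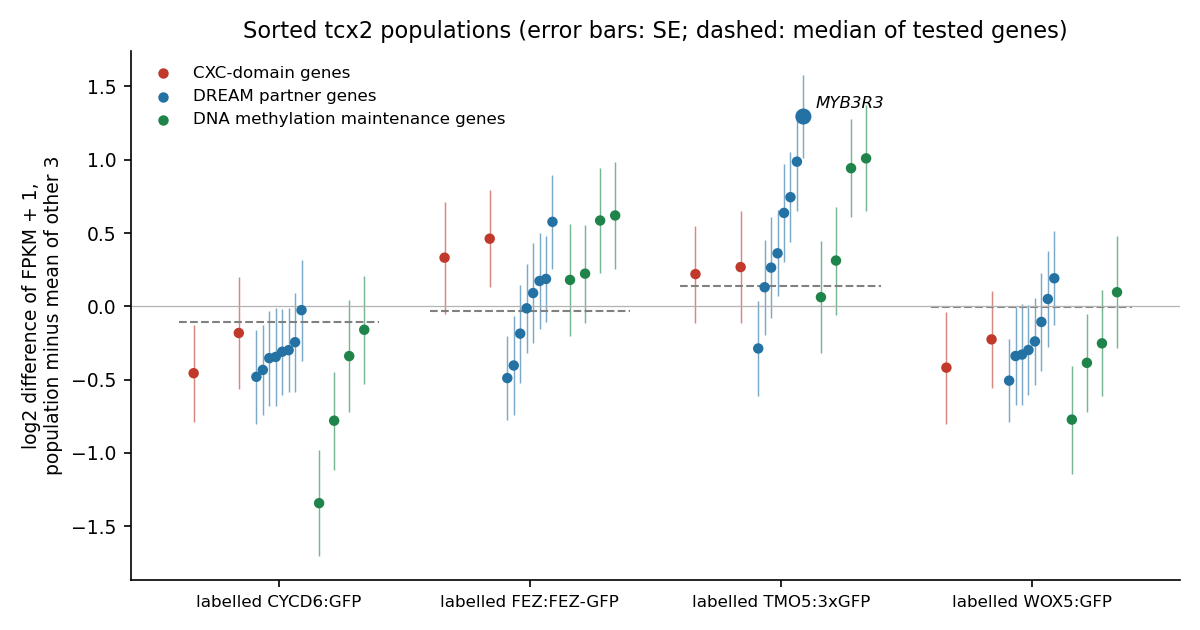
Log2 difference of FPKM + 1 between each labelled sorted tcx2 population and the mean of the other 3, for the tested CXC-domain genes (red), DREAM partner genes (blue) and DNA methylation maintenance genes (green). Bars are SE, dashed lines are the median of all tested genes, and the large symbol marks the 1 called gene, MYB3R3 at 1.3 in TMO5:3xGFP. MYB3R3 met the minimum for testing only through the libraries labelled TMO5:3xGFP, where it was high.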

How the data were processed

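The root tip values were FPKM estimates deposited by the authors, 1 per gene and genotype, with lower and upper bounds. The authors mapped 100-base reads to TAIR10, and the submitters' processing notes name Bowtie, Bowtie2, Cufflinks and edgeR without versions or order. For 437 of 17465 tested entries the authors' value lay outside its own interval in at least 1 genotype, and for 0 of the 8 members. The sorted values were FPKM deposited per library by the authors. Neither table keeps read totals, so depth is unknown, and no intervals for counting error are given.

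Root tip ratios were computed on log2(FPKM + 1). The sorted libraries were compared with limma 3.58.1 (R 4.3.3) on log2(FPKM + 1) with a trended prior, over 9979 of 33560 genes at 1 FPKM or more in at least 3 of 12 libraries, with 1 mean per population and Benjamini-Hochberg adjustment. The fit was tested on simulated data. The study's methods call the 3 libraries of a line biological replicates. The members and gene lists were chosen with earlier results of these data known, although no measured value enters the rule for the members. Genes named beyond the members were those called in a list, otherwise the lowest and highest, and the 3 most correlated with each tested member. Authors' positions were compared with TAIR10.1, and 32166 of 32167 entries matched by identifier overlapped the gene of that name. Sequences are from RefSeq on TAIR10.1. Alternatives were other pseudocounts, no minimum, other scaling, calls by a fold over 1.5, array weights, a replicate block and leaving out libraries.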

Additional observations from a re-analysis of the deposited data

How the results depend on the processing

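Of the root tip results, the log2 ratio of TCX2 was -1.78 at a pseudocount of 0.1, and the count of called relatives stayed at 0 under all 6 alternatives. The other pseudocounts could not change this count, since the call by intervals does not use them. Leaving out entries that merge several genes could not change it either, since no member was in such an entry. Calls by a fold over 1.5 gave 457 entries in place of 63. In the sorted libraries the count of called CXC-domain genes was 0 in 101 of 101 counts over the refits. Each refit gave a count for every population in it and a further count for the F-test, so the refits were fewer than the counts. Called DREAM partners in TMO5:3xGFP, 1 in the fit reported, numbered 0 at a pseudocount of 0.1 and 0 to 2 when single libraries were left out, 0 without any 1 of the 3 libraries labelled TMO5:3xGFP, because MYB3R3 then fell below the minimum, and 2 without CYCD6:GFP replicate 3. Called methylation genes in CYCD6:GFP numbered 1 with array weights and 1 when the libraries labelled WOX5:GFP were left out, an alternative chosen after seeing the data, as was the fit of MYB3R3 with no minimum. The share of all tested genes called in the same refit is not set beside these counts of DREAM partners and methylation genes. They therefore cannot be read as an excess. Among differences not called, sign changes of over 1 SE were seen for TCX7 in FEZ:FEZ-GFP with array weights (-0.12) and, leaving out single libraries, for KYP in CYCD6:GFP (-0.49 to 0.21), VIM3 in FEZ:FEZ-GFP (-0.22 to 0.39) and VIM3 in WOX5:GFP (-0.38 to 0.42). Others changed sign by less, such as TCX7 in CYCD6:GFP (-0.35 to 0.04 leaving out single libraries, 0.05 with array weights) and DPA in CYCD6:GFP (-0.14 to 0.28). The cause was not tested. Counts over all genes moved by over 1.5 times: with array weights to 3985 in the F-test in place of 427, to 157 without TMO5:3xGFP replicate 2 and 221 without TMO5:3xGFP replicate 1, to 245 at a pseudocount of 0.1 and to 174 with no minimum. Genes called higher in TMO5:3xGFP numbered 940 with array weights, 49 without TMO5:3xGFP replicate 2 and 192 at a pseudocount of 0.1 in place of 446, and median centring gave 373 higher and 318 lower in place of 446 and 105.

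No paired analysis was possible because the root tips have 1 value per genotype. In the sorted libraries, same-numbered libraries of different populations did not deviate together as a set (18 pairs, correlations -0.19 to 0.17). The 36 pairs of other numbers ran from -0.23 to 0.15. This gave no sign of pairing by number but cannot exclude it, since some populations could share a batch. With a replicate block the F-test called 358 genes, DREAM partners called in TMO5:3xGFP numbered 1, and called CXC-domain genes numbered 0. Read depth is unknown, and 6 of 8 members were below the minimum in sorted cells, so that they were compared only by the permutation test and the fit with no minimum.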
